A study of Mus musculus with 30 samples.

Results

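Collagens, laminins and the glycoproteins that bind them were followed in mammary glands of 4 groups of mice. The genes were chosen by symbol: every measured collagen chain (Col, a number, the letter a, a number), every measured laminin chain (Lama, Lamb or Lamc followed by a number), and Fn1, Sparc, Fbn1, Eln, Dcn, Lum, Bgn, Postn and Thbs2. The table held values for 36 of these genes, and 33 of them had enough values to be tested, among 11463 genes tested in all. Col9a2, Col15a1 and Lamc3 had too many blank values for a test, and Fbn1 and Eln were not measured. All groups shared the 129sv background, the inguinal gland and an age of 19 weeks. The groups were 7 WT glands, with neither change, 8 IFNAR1-/- glands, which lack a chain of the type I interferon receptor, 6 Her2/Neu+ glands, which carry the oncogene, and 9 Her2/Neu+/IFNAR1-/- glands, which carry both changes. The comparisons ask how the oncogene and the loss of this receptor, alone and together, go with the expression of these genes. The promoter that drives the oncogene, the allele used to remove the receptor, and whether a gland held a tumour are not given in the sources used here. The labels number separate samples without saying that each came from another mouse, so a p-value here covers the variation among the numbered samples, which may be technical.

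The extracellular matrix of the mammary gland has 2 main forms. Fibrillar collagens (types I, III and V) are spun by fibroblasts into the fibres of the stroma around ducts and fat, and fibronectin, decorin, lumican, biglycan, periostin and thrombospondin decorate or organise those fibres. The basement membrane is a thin sheet under the epithelium and around fat cells, vessels and muscle fibres, built from a collagen IV network and a laminin network that nidogen and perlecan tie together. Collagens and laminins are trimers, so their chains are made in sets: Col1a1 with Col1a2, Col4a1 with Col4a2, and a laminin alpha, beta and gamma chain together. Mammary epithelium reads the basement membrane through integrins and needs it for polarity and milk protein expression, and remodelled, crosslinked collagen is a known feature of mammary tumours.

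Each value is a log2 ratio of gland RNA (Cy5) to a universal mouse reference RNA (Cy3) hybridised to the same array, so a value below 0 means less RNA than in the reference. Ratios of different genes cannot be set against each other as levels. Arrays held between 17485 and 20801 values with medians from -0.12 to -0.00, and the values end at a size of 6, called the limit here. Between 2639 and 10385 values per array recurred digit for digit on that array, many of them close to 0, and are called repeated values. The Ifnar1 probe read from -0.47 to 2.32 in WT and from -1.03 to 1.55 in IFNAR1-/- glands, and the Erbb2 probe from -0.37 to 0.63 in WT and from -0.00 to 1.13 in Her2/Neu+ glands. These ranges overlap, and because the place of the Ifnar1 probe relative to the deletion and the species of the transgene are not given in the sources used here, neither probe checks the labels. The fat cell genes Adipoq and Plin1 lay at or near the limit on all arrays, and the epithelial keratin gene Krt18 was measured on all of them.

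Slides are not named in the labels. Runs of block numbers in sample order give 8 inferred slides, and no inferred slide holds both groups of any pairwise comparison below, so slide and group cannot be told apart there. The last inferred slide holds Her2/Neu+ 114, Her2/Neu+ 119 and IFNAR1-/- 41. These arrays stood apart for several matrix genes: they gave the 3 lowest Lamb1 and the 3 lowest Lamc1 values of all 30 arrays, and Her2/Neu+ 114 and 119 gave the 2 lowest Fn1 and Col3a1 values. Her2/Neu+ 114 was the lowest of the 30 arrays for Col1a1, Col1a2, Col5a3, Col6a1, Dcn and Sparc as well. For the genes named in this paragraph, a change is also given without Her2/Neu+ 114 or without the whole slide. For many other genes it is given with all arrays only.

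With the oncogene averaged over both receptor states, 5 of the 33 genes passed an adjusted p of 0.05 in limma, all of them lower: Fn1, Col1a1, Col1a2, Col3a1 and Col18a1. In that comparison 2.57% of all genes tested passed in either direction, and 0.864% passed as lower. At an unadjusted p under 0.05, 16 of the 33 were lower and 2 were higher, where 7.55% of all genes were lower and 11.3% were higher. The median change of the 33 genes was -0.50, against 0.07 for all genes tested, and 24 of the 33 (72.7%) were lower, against 42.6% of all genes. With the inferred slide as a random block Fn1 kept its call (adjusted p = 0.0158), and Col3a1 (adjusted p = 0.0673), Col1a2 (0.0813), Col1a1 (0.0962) and Col18a1 (0.138) lost theirs. The averaged comparison is made of the 2 oncogene comparisons that follow and is no separate evidence.

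Among glands with the receptor, Her2/Neu+ minus WT, Fn1 was the 1 gene of the 33 that passed, where 0.131% of all genes passed. At an unadjusted p under 0.05, 13 genes were lower and 2 (Bgn and Col16a1) were higher, where 6.69% and 5.37% of all genes were. The median change was -0.56 for the 33 genes and -0.02 for all genes. Among glands without the receptor, Her2/Neu+/IFNAR1-/- minus IFNAR1-/-, none of the 33 passed in limma, where 1.31% of all genes did. There 8 of the 33 were lower and 2 higher at an unadjusted p under 0.05, where 4.96% and 13.5% of all genes were. The median change was -0.31 for the 33 genes and 0.15 for all genes. In neither comparison was a gene of the set free of overlap between the groups, where 0.192% of all genes lay wholly lower and 0.340% wholly higher in Her2/Neu+ than in WT glands. The shares were 0.0785% and 0.157% for Her2/Neu+/IFNAR1-/- against IFNAR1-/- glands.

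**Figure D1:**
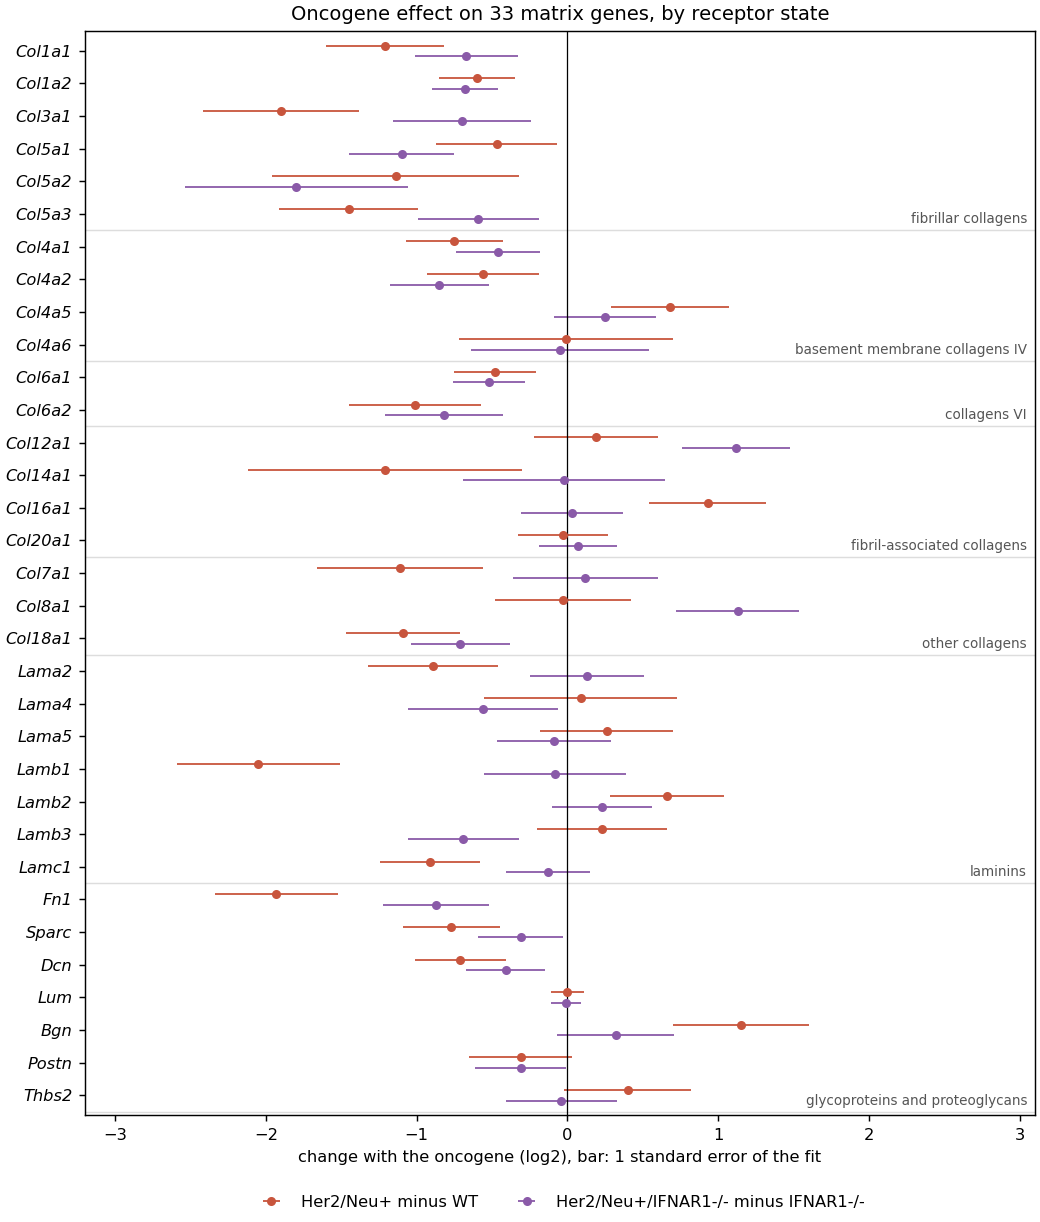
Change with the oncogene (horizontal axis, log2) of each of the 33 tested matrix genes, in glands with the receptor (Her2/Neu+ minus WT, red) and without it (Her2/Neu+/IFNAR1-/- minus IFNAR1-/-, purple), grouped by role; points are the limma estimates and bars 1 standard error. All 6 fibrillar collagen chains lie left of 0 in both comparisons, while laminins and glycoproteins lie on both sides.

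Fn1 encodes fibronectin, the glycoprotein that cells assemble into fibrils on which collagen is laid down (chr1:71585473-71653280, GRCm38.p6). Its log2 ratio ran from -2.94 to -0.86 with a median of -1.47 in the 7 WT glands and from -3.25 to -0.67 (median -1.15) in the 8 IFNAR1-/- glands. In the 6 Her2/Neu+ glands it ran from -4.66 to -2.89 (median -3.54), and in the 9 Her2/Neu+/IFNAR1-/- glands from -2.96 to -1.30 (median -2.42). The Her2/Neu+ values were the low group: 5 of 6 lay below every WT value, and Her2/Neu+ 120, at -2.89, lay just above WT 56, at -2.94. In Her2/Neu+ glands Fn1 fell by 1.93 ± 0.41 (SE) on the log2 scale, or 3.82-fold, against WT (limma, adjusted p = 0.0402). Averaged over both receptor states it fell by 1.40 ± 0.27, or 2.64-fold (adjusted p = 0.00535). Without the receptor the change was -0.87 ± 0.35 (adjusted p = 0.184), and 8 of 9 Her2/Neu+/IFNAR1-/- values lay below the IFNAR1-/- mean. Without the last inferred slide, which takes out the low IFNAR1-/- 41, that change passed at -1.13 ± 0.31 (adjusted p = 0.0416).

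The averaged Fn1 call was kept in all 30 fits that each left out 1 array, with adjusted p from 0.000695 to 0.0143, and without the whole last inferred slide (-1.35 ± 0.24, adjusted p = 0.00351). The call against WT was lost in 15 of those 30 fits (highest adjusted p = 0.125) and without the last inferred slide (-1.56 ± 0.38, adjusted p = 0.111). Inferred slides fall into a first and a second set of 15 arrays. In the first, with 4 Her2/Neu+ arrays, the averaged Fn1 change was -1.01 ± 0.32 (adjusted p = 0.466) and no gene of the whole table passed. In the second, with 2 Her2/Neu+ arrays, both from the last slide, it was -2.06 ± 0.40 (adjusted p = 0.00883).

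**Figure D2:**
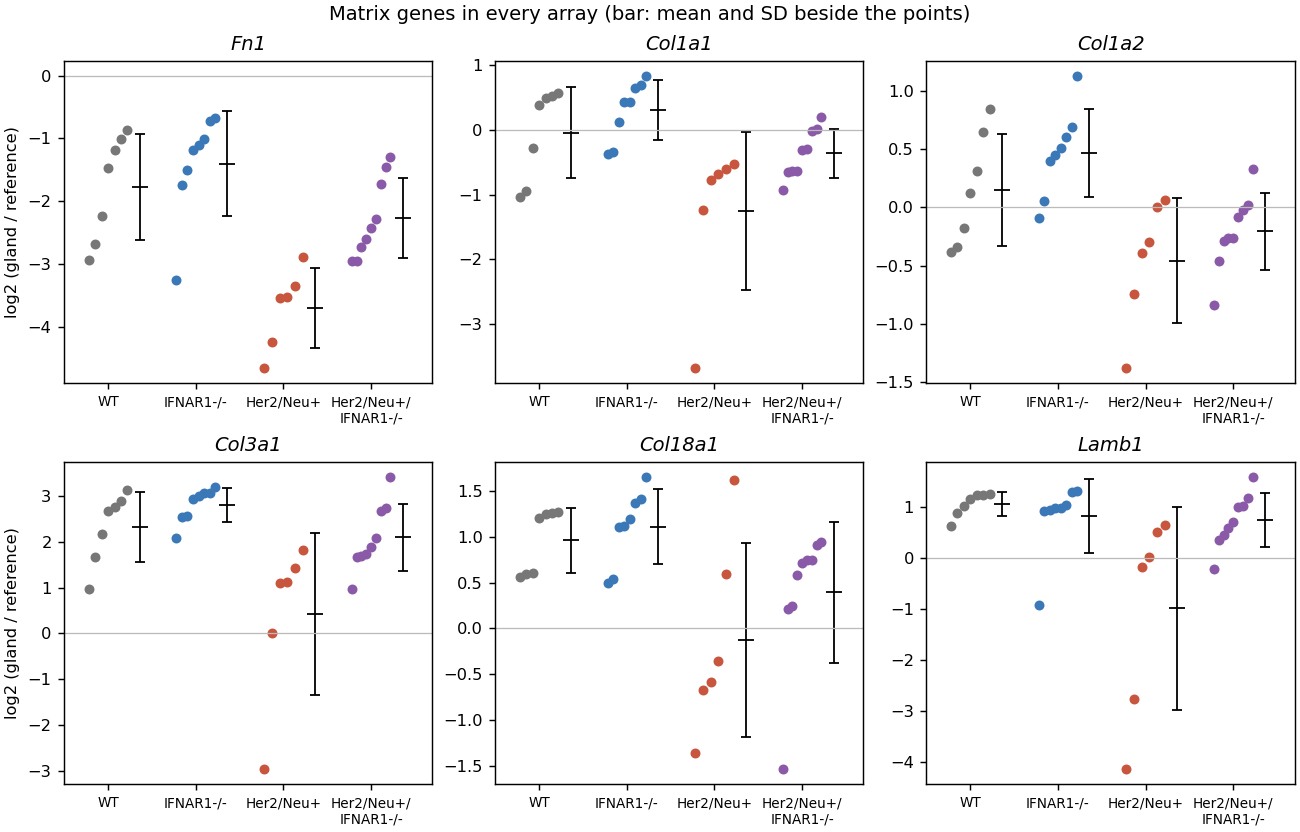
Log2 ratio of gland over reference (vertical axis) for 6 matrix genes in every array of the 4 groups; each point is 1 gland, sorted within its group, and the bar beside the points gives the group mean and SD. Fn1 in Her2/Neu+ glands sits between -4.66 and -2.89, while the low Col1a1, Col3a1 and Lamb1 means of that group include 1 or 2 points far below the others.

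Col1a1 and Col1a2 encode the 2 chains of type I collagen, the main fibre of the stroma, and Col3a1 encodes type III collagen, which copolymerises with it. Col1a1 (chr11:94936224-94953042) ran from -1.03 to 0.58 (median 0.38) in WT, from -0.37 to 0.84 (0.43) in IFNAR1-/-, from -3.68 to -0.52 (-0.73) in Her2/Neu+ and from -0.92 to 0.20 (-0.31) in Her2/Neu+/IFNAR1-/- glands. All 6 Her2/Neu+ values lay below the WT mean of -0.04, yet 2 of them, Her2/Neu+ 114 and 118, lay below every WT value. Averaged over both receptor states Col1a1 fell by 0.94 ± 0.26, or 1.92-fold (limma, adjusted p = 0.0460). Without Her2/Neu+ 114 the change was -0.70 ± 0.19 (adjusted p = 0.0516), and the call held in 9 of the 30 fits that left out 1 array. Without the whole last inferred slide Col1a1 passed.

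Col1a2 (chr6:4505618-4541543) ran from -0.38 to 0.84 (median 0.12) in WT, from -0.09 to 1.13 (0.48) in IFNAR1-/-, from -1.38 to 0.06 (-0.34) in Her2/Neu+ and from -0.84 to 0.33 (-0.26) in Her2/Neu+/IFNAR1-/- glands. All 9 Her2/Neu+/IFNAR1-/- values lay below the IFNAR1-/- mean and 5 of them below every IFNAR1-/- value. The averaged fall was 0.64 ± 0.17, or 1.56-fold (adjusted p = 0.0380), and the change was of like size with the receptor (-0.60 ± 0.25, adjusted p = 0.310) and without it (-0.68 ± 0.22, adjusted p = 0.0996). The difference between those 2 changes was -0.07 ± 0.33 (adjusted p = 0.953), an interval too wide to show that they are equal. Without Her2/Neu+ 114 the averaged change was -0.55 ± 0.16 (adjusted p = 0.0612), and without the last inferred slide it was -0.59 ± 0.17 (adjusted p = 0.0672). The averaged call held in 19 of the 30 fits that left out 1 array, and with quantile normalization the change was -0.48 ± 0.19 (adjusted p = 0.154).

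Col3a1 (chr1:45311538-45349706) ran from 0.97 to 3.13 (median 2.67) in WT, from 2.08 to 3.19 (2.97) in IFNAR1-/-, from -2.96 to 1.83 (1.12) in Her2/Neu+ and from 0.98 to 3.42 (1.89) in Her2/Neu+/IFNAR1-/- glands. Its averaged fall was 1.30 ± 0.35, or 2.47-fold (adjusted p = 0.0413). The change was -1.90 ± 0.52 with the receptor (adjusted p = 0.141) and -0.70 ± 0.46 without it (adjusted p = 0.416). Of the Her2/Neu+ values, Her2/Neu+ 114 and 119 lay below every WT value and the other four lay within the WT range. Without the last inferred slide the averaged change was -0.88 ± 0.24 (adjusted p = 0.0596), and the call held in 15 of the 30 fits that left out 1 array.

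Promoter windows from RefSeq (GRCm38.p6), reaching 250 bases before and 50 bases after an annotated start, were on hand for 26 of the 36 genes. These genes had 30 windows, and the first one listed for a gene is shown. Those of Col1a2 and Col3a1 are shown because both are fibrillar collagen genes that passed the test. The capitals mark exact matches, on either strand, to the GC box GGGCGG, the CCAAT box CCAAT or the TATA motif TATAAA.
Col1a2, chr6:4505368-4505667, plus strand: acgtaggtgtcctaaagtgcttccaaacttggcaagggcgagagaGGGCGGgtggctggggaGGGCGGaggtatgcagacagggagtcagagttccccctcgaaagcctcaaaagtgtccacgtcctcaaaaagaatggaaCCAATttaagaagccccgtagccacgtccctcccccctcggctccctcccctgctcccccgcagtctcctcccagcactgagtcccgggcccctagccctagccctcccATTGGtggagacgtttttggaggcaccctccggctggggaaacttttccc
Col3a1, chr1:45311288-45311587, plus strand: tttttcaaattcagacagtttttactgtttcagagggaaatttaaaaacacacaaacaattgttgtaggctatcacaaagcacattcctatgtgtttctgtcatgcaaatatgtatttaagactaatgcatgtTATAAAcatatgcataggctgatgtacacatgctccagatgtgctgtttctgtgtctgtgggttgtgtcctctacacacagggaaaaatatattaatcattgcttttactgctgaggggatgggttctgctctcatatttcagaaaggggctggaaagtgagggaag
The Col1a2 window holds 2 GC box and 2 CCAAT box matches, and the Col3a1 window holds 1 TATAAA match and none of the others. Of the 26 genes with a window, 17 held a GC box match, 11 a CCAAT match and 3 (Col3a1, Postn and Thbs2) a TATAAA match. Counted by window, 18, 11 and 3 of the 30 windows held them, where the shares among all 32851 windows were 35.7%, 37.4% and 13.6%. These are matches of letters and say nothing about binding.

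Type V collagen starts and limits the width of type I fibrils, and its chains Col5a1, Col5a2 and Col5a3 were lower with the oncogene without passing the test. Col5a1 ran from -0.80 to 0.07 in WT, from -2.16 to 0.62 in IFNAR1-/-, from -1.42 to -0.04 in Her2/Neu+ and from -2.57 to -0.12 in Her2/Neu+/IFNAR1-/- glands. Its change was -1.10 ± 0.35 without the receptor (adjusted p = 0.0945) and -0.47 ± 0.40 with it (adjusted p = 0.688). All 9 Her2/Neu+/IFNAR1-/- values lay below the IFNAR1-/- mean, 2 of them below every IFNAR1-/- value. Without IFNAR1-/- 41, which gave the -2.16, 1 gene of the 33 passed in this comparison, and without the last inferred slide Col5a1 passed with -1.39 ± 0.30 (adjusted p = 0.0173). Without that slide Col5a1 passed in the averaged comparison too.

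Col5a2 changed by -1.80 ± 0.74 without the receptor (adjusted p = 0.184), but 8 of 8 Her2/Neu+/IFNAR1-/- values were repeated values between -0.22 and -0.01, against 1 of 8 values in IFNAR1-/- glands. Whether a Col5a2 signal was measured on those arrays is therefore not known. Col5a3 ran from 2.88 to 4.09 in WT and from -0.04 to 4.25 in Her2/Neu+ glands. There 4 of 6 values lay below every WT value and 1 above all of them, and the change was -1.45 ± 0.46 (adjusted p = 0.177). Without the last inferred slide it was -0.95 ± 0.46 (adjusted p = 0.549). Across the 6 fibrillar chains together, 6 of 6 were lower in both oncogene comparisons, where 51.5% of all genes were lower with the receptor and 38.1% without it. Their medians were -1.17 with the receptor and -0.69 without it, where all genes had medians of -0.02 and 0.15. The count without the receptor includes Col5a2 and its repeated values.

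Chains were compared across arrays after the mean of each group had been removed, for 4 pairs that share a trimer and for Col1a1 with Col3a1, 5 pairs in all, with permutation p-values (two-sided, arrays permuted within groups) adjusted over the 5. Col1a1 and Col1a2 varied together (Pearson r = 0.78, Spearman rho = 0.77, n = 30 arrays, permutation p = 1e-05 for each, the smallest that the permutations can give, adjusted 2.5e-05). Without Her2/Neu+ 114 and WT 55, the arrays farthest from the median, r was 0.70, and within the first and second set of 15 arrays it was 0.74 and 0.90. Col4a1 and Col4a2 gave r = 0.84 and rho = 0.76 (permutation p = 1e-05 for each, adjusted 2.5e-05), with r = 0.71 without Her2/Neu+/IFNAR1-/- 110 and 102 and 0.85 and 0.79 within the sets. Both relations are over arrays pooled from the 4 groups, and no group was examined alone.

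Lamb1 and Lamc1 gave r = 0.71 (permutation p = 3e-05, adjusted 5e-05) and rho = 0.60 (permutation p = 0.00088, adjusted 0.00147), with r = 0.74 without Her2/Neu+ 114 and 119 and 0.65 and 0.73 within the sets. Col1a1 and Col3a1, which belong to different trimers, gave r = 0.81 (permutation p = 0.00025, adjusted 0.000312) and rho = 0.64 (permutation p = 0.00172, adjusted 0.00215). That relation leaned on Her2/Neu+ 114 and WT 55, without which r was 0.57, and it was 0.71 and 0.91 within the sets. Col5a1 and Col5a2 gave r = 0.18 (permutation p = 0.299, adjusted 0.299) and rho = 0.18 (permutation p = 0.323) over 29 arrays, and many Col5a2 values were repeated values near 0. Arrays also share their hybridisation, so a common shift of an array moves both chains of a pair.

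**Figure D3:**
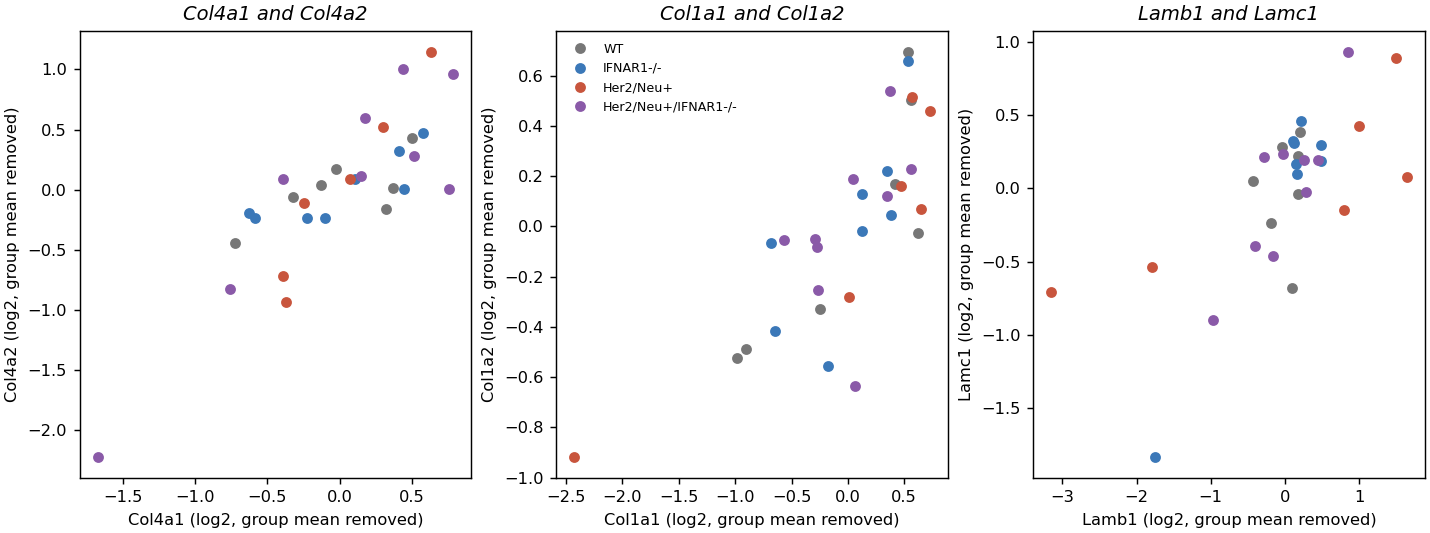
Log2 ratios of 3 chain pairs with the mean of each group removed (both axes, log2); each point is 1 array, coloured by group. The points of Col4a1 with Col4a2 (r = 0.84), Col1a1 with Col1a2 (r = 0.78) and Lamb1 with Lamc1 (r = 0.71) run along a rising line, and Her2/Neu+ 114 is the point farthest left for Col1a1 and for Lamb1.

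Collagen IV is the network collagen of the basement membrane, and Col4a1 and Col4a2 encode its common chains. They sit head to head on chromosome 8, Col4a1 on the minus strand (chr8:11198423-11312889) and Col4a2 on the plus strand (chr8:11312805-11449287), and their windows overlap. The Col4a1 window is set on a start inside that gene span, so the overlap depends on the start used. Both windows are shown because the pair varied together; the capitals mark the 78 bases that they share (chr8:11312777-11312854), each written 5′ to 3′ on its own strand.
Col4a1, chr8:11312777-11313076, minus strand: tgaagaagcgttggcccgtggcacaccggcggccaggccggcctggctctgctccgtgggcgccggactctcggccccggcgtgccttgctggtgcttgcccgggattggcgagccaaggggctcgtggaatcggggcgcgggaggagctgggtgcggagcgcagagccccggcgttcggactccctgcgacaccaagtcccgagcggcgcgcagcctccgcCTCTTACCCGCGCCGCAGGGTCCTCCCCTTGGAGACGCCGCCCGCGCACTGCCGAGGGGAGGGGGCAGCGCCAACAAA
Col4a2, chr8:11312555-11312854, plus strand: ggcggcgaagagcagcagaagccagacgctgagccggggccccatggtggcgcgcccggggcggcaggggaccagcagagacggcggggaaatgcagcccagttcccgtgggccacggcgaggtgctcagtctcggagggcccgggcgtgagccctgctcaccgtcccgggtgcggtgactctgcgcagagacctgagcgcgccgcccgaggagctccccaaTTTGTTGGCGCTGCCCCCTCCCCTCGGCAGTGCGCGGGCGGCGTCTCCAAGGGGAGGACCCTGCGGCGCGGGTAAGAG
By letters, the Col4a1 window holds 1 GC box and 1 CCAAT box match and the Col4a2 window 3 GC box and 1 CCAAT box matches, and neither holds TATAAA.

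Col4a1, the mean of 10 probes, ran from 1.01 to 2.23 (median 1.70) in WT, from 1.48 to 2.69 (2.11) in IFNAR1-/-, from 0.59 to 1.61 (0.89) in Her2/Neu+ and from -0.02 to 2.44 (1.83) in Her2/Neu+/IFNAR1-/- glands. All 6 Her2/Neu+ values lay below the WT mean and 3 below every WT value, and the averaged change was -0.61 ± 0.22 (adjusted p = 0.122). The 10 probes differed in size but not in sign against WT, from -1.25 to -0.05. Col4a2 ran from 1.01 to 1.88 (median 1.47) in WT, from 1.86 to 2.57 (2.01) in IFNAR1-/-, from -0.04 to 2.04 (0.88) in Her2/Neu+ and from -0.97 to 2.26 (1.37) in Her2/Neu+/IFNAR1-/- glands. Without the receptor 7 of 9 oncogene values lay below every IFNAR1-/- value (change -0.85 ± 0.33, adjusted p = 0.162). With quantile normalization both chains passed in the averaged comparison. The chains Col4a5 and Col4a6, which lie together on the X chromosome and form another collagen IV network, changed by 0.47 ± 0.26 (adjusted p = 0.329) and -0.03 ± 0.46 (adjusted p = 0.985) in the average. In Her2/Neu+/IFNAR1-/- glands 8 of 9 Col4a5 values and 6 of 9 Col4a6 values were repeated values.

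Collagen XVIII is a basement membrane collagen whose end fragment is endostatin, and it was the basement membrane chain that passed. Col18a1 (chr10:77052178-77166530), the mean of 2 probes, ran from 0.56 to 1.27 (median 1.20) in WT, from 0.50 to 1.65 (1.15) in IFNAR1-/-, from -1.35 to 1.61 (-0.47) in Her2/Neu+ and from -1.53 to 0.94 (0.71) in Her2/Neu+/IFNAR1-/- glands. In Her2/Neu+ glands 4 of 6 values lay below every WT value while Her2/Neu+ 119, at 1.61, lay above all of them. Its averaged fall was 0.90 ± 0.25, or 1.87-fold (adjusted p = 0.0480). Its 2 probes differed from WT by -1.14 and -1.04 in Her2/Neu+ glands, and from IFNAR1-/- by -0.94 and -0.49 in Her2/Neu+/IFNAR1-/- glands. The call was close to the threshold: it held in 6 of the 30 fits that left out 1 array (adjusted p from 0.0143 to 0.0915), and with the single probe of fewest blanks the change was -0.82 ± 0.30 (adjusted p = 0.132). The call held without the whole last inferred slide and was lost without Her2/Neu+ 114 alone.

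Laminins are the cross-shaped trimers that organise the basement membrane, and no laminin chain passed in any comparison. Lamb1, the beta chain of most laminins of the embryo and of vessels and fat (chr12:31265146-31329644), ran from 0.64 to 1.27 (median 1.16) in WT, from -0.92 to 1.32 (0.98) in IFNAR1-/-, from -4.14 to 0.66 (-0.08) in Her2/Neu+ and from -0.22 to 1.60 (0.72) in Her2/Neu+/IFNAR1-/- glands. The WT values were tight, 5 of 6 Her2/Neu+ values lay below all of them, and the Her2/Neu+ values themselves spread widely. The change against WT was -2.05 ± 0.54 (adjusted p = 0.113), and without the last inferred slide it was -0.82 ± 0.25 (adjusted p = 0.271). In the second set of arrays, where Her2/Neu+ 114 and 119 are the Her2/Neu+ glands, it was -4.64 ± 0.56 (adjusted p = 0.00027), and in the first set -0.73 ± 0.35 (adjusted p = 0.883). The size of the Lamb1 change therefore rests on those arrays, while its sign was the same without them.

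Lamc1, the gamma chain shared by most laminins (chr1:153218922-153332786), ran from -0.12 to 0.95 in WT, from -0.90 to 1.40 in IFNAR1-/-, from -1.06 to 0.55 in Her2/Neu+ and from -0.10 to 1.74 in Her2/Neu+/IFNAR1-/- glands. Its change was -0.91 ± 0.33 against WT (adjusted p = 0.240) and -0.13 ± 0.28 without the receptor (adjusted p = 0.841). Without IFNAR1-/- 41 alone, its averaged oncogene change passed, at -0.65 ± 0.17 (adjusted p = 0.0407). That fit keeps the low Her2/Neu+ 114 and 119 of the same inferred slide, and without the whole slide Lamc1 did not pass. The alpha chains did not share a direction: against WT Lama2, the chain of muscle and nerve laminin, changed by -0.89 ± 0.43 (adjusted p = 0.410) and Lama5, the chain of epithelial and vessel laminin, by 0.26 ± 0.44 (adjusted p = 0.869). Lama4, the chain of vessels and fat cells, was at the limit on 19 arrays and gives bounds there, not levels. Lamb3, a chain of the laminin that anchors basal epithelial cells, changed by 0.85 ± 0.40 in IFNAR1-/- against WT glands (adjusted p = 0.724). There 5 of 7 WT values and 2 of 8 IFNAR1-/- values of Lamb3 were repeated values. With the receptor 3 of 7 laminin chains were lower with the oncogene, and without it 5 of 7 were, where 51.5% and 38.1% of all genes were.

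**Figure D4:**
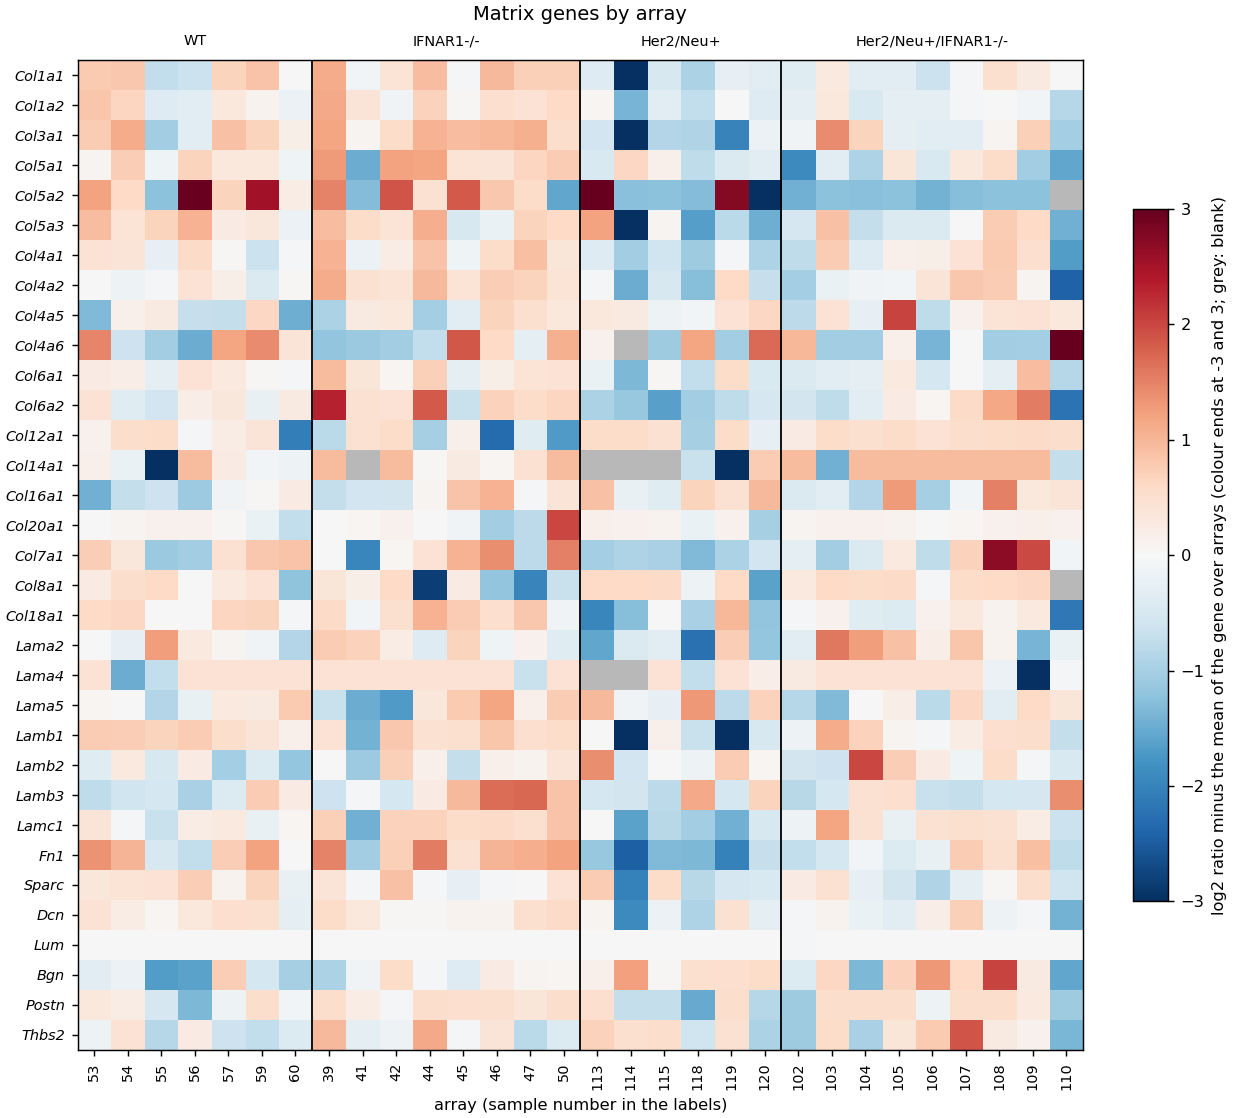
Log2 ratio minus the mean of each gene over the arrays (colour, ending at -3 and 3; grey is a blank value) for the 33 tested matrix genes (rows, by role) in the 30 arrays (columns, by group and sample number). The blue column of Her2/Neu+ 114 and the weaker ones of Her2/Neu+ 118 and Her2/Neu+/IFNAR1-/- 110 show arrays on which many chains were low together.

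Collagen VI forms the beaded filaments that surround fat cells and muscle fibres. Col6a1 ran from -0.13 to 0.61 in WT, from -0.13 to 1.11 in IFNAR1-/-, from -1.19 to 0.72 in Her2/Neu+ and from -0.69 to 1.08 in Her2/Neu+/IFNAR1-/- glands, with an averaged change of -0.50 ± 0.18 (adjusted p = 0.127), and -0.40 ± 0.17 without Her2/Neu+ 114 (adjusted p = 0.221). Col6a2 ran from -0.10 to 0.90 in WT, from -0.19 to 2.78 in IFNAR1-/-, from -1.15 to -0.03 in Her2/Neu+ and from -1.74 to 2.00 in Her2/Neu+/IFNAR1-/- glands. In Her2/Neu+ glands 5 of 6 Col6a2 values lay below every WT value, and the averaged change was -0.92 ± 0.30 (adjusted p = 0.0901). Of the 6 Her2/Neu+ values of Col6a2, 3 were repeated values.

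Fibril-associated collagens bridge fibres, and their 4 tested members did not share a direction. Col16a1 was higher in Her2/Neu+ than in WT glands (0.93 ± 0.39, adjusted p = 0.319), with 4 of 6 values above every WT value and 2 probes that differed by 0.65 and 1.21. The probe with the larger difference had a Her2/Neu+ mean of -0.09, and 3 of its 6 values there were repeated values. Col12a1 changed by 1.12 ± 0.36 without the receptor (adjusted p = 0.0952), but 9 of 9 Her2/Neu+/IFNAR1-/- values were repeated values between -0.32 and -0.00. Col8a1, a short-chain collagen of vessel walls, changed by 1.13 ± 0.41 there (adjusted p = 0.134), and 8 of 8 of its values in that group were repeated values too. Col14a1 had 3 values in Her2/Neu+ glands, -0.03, 4.39 and 5.82, and lay at the limit on 7 of 9 Her2/Neu+/IFNAR1-/- arrays, so its change of 2.16 ± 0.88 between them (adjusted p = 0.367) is drawn from bounds. Col7a1, the anchoring fibril collagen of squamous and basal epithelium, changed by -1.11 ± 0.55 against WT (adjusted p = 0.420) and 0.12 ± 0.48 without the receptor (adjusted p = 0.922). Of its 6 Her2/Neu+ values, which lay between -0.42 and 0.34, 4 were repeated values. Among the genes with too many blanks, Col15a1, a collagen of vessel and muscle basement membranes, gave 18 values of which 5 were at the limit, Col9a2 gave 21 with 7 at the limit, and Lamc3 gave 20 with 3 at the limit.

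The glycoproteins and proteoglycans split by gene. Sparc, which binds collagen and guides its assembly, ran from 0.11 to 1.06 in WT, from 0.08 to 1.21 in IFNAR1-/-, from -1.70 to 1.09 in Her2/Neu+ and from -0.58 to 0.86 in Her2/Neu+/IFNAR1-/- glands, with a change against WT of -0.77 ± 0.32 (adjusted p = 0.319). Without the last inferred slide that change was -0.34 ± 0.31 (adjusted p = 0.792). Dcn, encoding decorin, a proteoglycan that caps collagen fibrils, ran from 2.94 to 3.73 in WT, from 3.25 to 3.78 in IFNAR1-/-, from 1.30 to 3.68 in Her2/Neu+ and from 1.80 to 3.93 in Her2/Neu+/IFNAR1-/- glands. Its averaged change was -0.56 ± 0.20 (adjusted p = 0.116), and -0.41 ± 0.17 without Her2/Neu+ 114 (adjusted p = 0.205). Bgn, encoding the related proteoglycan biglycan, went the other way: it ran from -2.88 to -0.46 in WT and from -1.16 to 0.03 in Her2/Neu+ glands, all 6 of which lay above the WT mean (1.15 ± 0.45, adjusted p = 0.277).

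Bgn ran from -2.15 to -0.65 in IFNAR1-/- and from -2.77 to 0.83 in Her2/Neu+/IFNAR1-/- glands, where the change was 0.32 ± 0.39 (adjusted p = 0.708). Postn, encoding periostin, ran from 4.12 to 6 in WT, from 5.42 to 6 in IFNAR1-/-, from 3.96 to 6 in Her2/Neu+ and from 4.39 to 6 in Her2/Neu+/IFNAR1-/- glands, with 10 arrays at the limit and an averaged change of -0.31 ± 0.23 (adjusted p = 0.472). Thbs2, encoding thrombospondin 2, an inhibitor of vessel growth, ran from -1.75 to -0.46 in WT, from -1.71 to 0.23 in IFNAR1-/-, from -1.84 to -0.21 in Her2/Neu+ and from -2.28 to 0.98 in Her2/Neu+/IFNAR1-/- glands (averaged change 0.18 ± 0.28, adjusted p = 0.764). Lum, encoding lumican, was at the limit on 29 of 30 arrays, so these data hold a lower bound on it and no change can be read from it.

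Loss of the receptor alone, IFNAR1-/- minus WT, called none of the 33 genes in limma, where 0.0262% of all genes passed. At an unadjusted p under 0.05, 1 gene (Lamb3) was higher and none lower, where 2.88% and 3.99% of all genes were. The median change of the set was 0.31, against -0.08 for all genes, and 9 of 33 genes were lower, against 58.1% of all genes. In oncogene-bearing glands, Her2/Neu+/IFNAR1-/- minus Her2/Neu+, none passed in limma, where 0.0785% of all genes did. There 10 genes were higher and none lower at an unadjusted p under 0.05, where 6.99% and 4.18% of all genes were. This comparison and Her2/Neu+ minus WT share the 6 Her2/Neu+ arrays, so a low Her2/Neu+ array moves both, in opposite directions.

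The 10 genes were Fn1, Col1a1, Col3a1, Col4a1, Col6a2, Col7a1, Col14a1, Lama2, Lamb1 and Lamc1. Fn1 was 1.43 ± 0.38 higher in Her2/Neu+/IFNAR1-/- than in Her2/Neu+ glands (adjusted p = 0.170), with 7 of 9 values above every Her2/Neu+ value. Lamc1 was 1.15 ± 0.31 higher (adjusted p = 0.170), Lamb1 1.73 ± 0.51 higher and Col3a1 1.67 ± 0.49 higher (adjusted p = 0.207 for each). For each of these 4 genes, all 9 values lay above the Her2/Neu+ mean. That mean was below the Her2/Neu+ median for Lamb1 (-0.98 against -0.08) and Col3a1 (0.43 against 1.12). Above every Her2/Neu+ value lay 6 of 9 values of Lamc1 and 5 of 9 each of Lamb1 and Col3a1. Without the last inferred slide Fn1 was 1.06 ± 0.36, Lamc1 0.84 ± 0.25, Lamb1 0.49 ± 0.24 and Col3a1 0.72 ± 0.36 higher, and 7 of the 33 genes had an unadjusted p under 0.05.

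Whether the oncogene change differed between receptor states was tested as an interaction, the change without the receptor minus that with it. None of the 33 genes passed in limma, where 0.0174% of all genes did. Lamb1 was the 1 gene with an unadjusted p under 0.05 (1.97 ± 0.71, adjusted p = 0.483), where 2.77% of all genes were lower and 6.86% higher at that level, and without the last inferred slide its interaction was 0.49 ± 0.32. For Fn1 the interaction was 1.06 ± 0.54 (adjusted p = 0.528), and for Col3a1 it was 1.20 ± 0.69 (adjusted p = 0.553). The larger Fn1 and Col3a1 changes in glands with the receptor are therefore not shown to differ from those in glands without it. With receptor loss averaged over both oncogene states none of the 33 passed in limma, where 0.0698% of all genes did, and 10 were higher and none lower at an unadjusted p under 0.05, where 4.61% and 4% of all genes were. Fn1 (0.90 ± 0.27, adjusted p = 0.364), Lamc1 (0.76 ± 0.22, adjusted p = 0.308) and Col3a1 (1.08 ± 0.35, adjusted p = 0.389) were among them, as were Col6a2 (0.87 ± 0.30) and Col14a1 (1.56 ± 0.56). Without IFNAR1-/- 41 alone Lamc1 passed in this comparison, at 0.90 ± 0.17 (adjusted p = 0.0273). That fit keeps the low Her2/Neu+ arrays of the last inferred slide. Without the whole slide none of the 33 genes passed in this comparison.

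Genes that build, cut and read the matrix were counted beside the set, in the average over both receptor states. In that average 2.57% of all genes tested passed in limma, and 42.6% were lower. Of 18 tested genes for collagen folding and crosslinking, 2 passed as higher and 1 as lower, while 8 were higher and 10 lower in all. P4ha1 and P4ha2 encode catalytic subunits of the prolyl hydroxylase that stabilises the collagen helix, and they went in opposite directions: P4ha1 rose by 1.03 ± 0.26 (adjusted p = 0.0309) and P4ha2 fell by 1.41 ± 0.24, or 2.67-fold (adjusted p = 0.00118). P4ha2 had group means of -1.93 in WT, -1.99 in IFNAR1-/-, -3.51 in Her2/Neu+ and -3.24 in Her2/Neu+/IFNAR1-/- glands. Both passed without the receptor too, P4ha1 at 1.53 ± 0.34 (adjusted p = 0.0267) and P4ha2 at -1.25 ± 0.32 (adjusted p = 0.0424). Plod2, the lysyl hydroxylase that directs stable crosslinks, rose by 1.72 ± 0.43, or 3.30-fold (adjusted p = 0.0303).

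Nid1, encoding nidogen, the link between the laminin and collagen IV networks, fell by 1.21 ± 0.29, or 2.31-fold (adjusted p = 0.0256), and was the 1 gene to pass among 21 other matrix and basement membrane proteins. Its group mean was 1.65 ± 0.41 (SD, n = 7) in WT and -0.07 ± 1.52 (n = 6) in Her2/Neu+ glands. It was 1.89 ± 0.32 (n = 8) in IFNAR1-/- and 1.19 ± 0.66 (n = 9) in Her2/Neu+/IFNAR1-/- glands, a smaller gap. Itgb1, the integrin beta chain shared by most collagen, laminin and fibronectin receptors, rose by 0.74 ± 0.20 (adjusted p = 0.0442). It was 1 of 15 tested receptor genes, of which 12 were higher and 3 lower, where 42.6% of all genes were lower. None of 13 proteases and inhibitors passed in limma, and 11 of the 13 were lower. At an unadjusted p under 0.05, 2 of the 13 were lower, where 7.55% of all genes were. Of 12 genes of TGF-beta signalling, which drives matrix synthesis in fibroblasts, Tgfb2 rose by 0.99 ± 0.27 (adjusted p = 0.0438). None of the 12 passed as lower. At an unadjusted p under 0.05 in limma, 2 of them were higher and 2 lower.

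Because whole glands were homogenised, fewer cells of a type and less RNA per cell cannot be told apart. Marker lists of 11 cell types were followed for that reason, as the mean over a list's genes on each array after each gene was centred on its mean over arrays. The 10 fibroblast markers averaged between -0.17 and 0.19 in WT, 0.07 and 0.82 in IFNAR1-/-, -1.70 and 0.16 in Her2/Neu+ and -0.68 and 0.52 in Her2/Neu+/IFNAR1-/- glands. None of them passed in the averaged comparison in limma, but 10 of 10 were lower, 3 at an unadjusted p under 0.05, with a median of -0.43. Of all genes tested 42.6% were lower there, 7.55% at an unadjusted p under 0.05, with a median of 0.07. The lowest fibroblast means of the oncogene groups were on Her2/Neu+ 114 and Her2/Neu+/IFNAR1-/- 110, which were also the arrays with the lowest mean over the 33 matrix genes in those groups, -1.09 and -0.57. Their part in the matrix results was not tested.

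Genes of other lists passed as well in the averaged comparison, where 2.57% of all genes tested did. Of 6 basal and myoepithelial genes, Krt14 fell by 1.67 ± 0.44 (adjusted p = 0.0441) and Acta2 by 0.86 ± 0.23 (adjusted p = 0.0416). Krt14 had values on 4 of 6 Her2/Neu+ and 6 of 9 Her2/Neu+/IFNAR1-/- arrays, with a median of -0.02 in each group. Whether a Krt14 signal was measured on the arrays near 0 is not known. The basal list mean was -1.94 on Her2/Neu+ 114 and -2.11 on Her2/Neu+/IFNAR1-/- 103 against a lowest WT value of -0.62. Of 4 smooth muscle and pericyte genes Tagln fell by 0.99 ± 0.25 (adjusted p = 0.0319), of 5 macrophage genes Csf1r fell by 0.75 ± 0.20 (adjusted p = 0.0377), and of 7 luminal genes Epcam rose by 2.10 ± 0.55 (adjusted p = 0.0388). Not every list followed its named gene, and the counts below stand against 42.6% of all genes lower. While 5 of 6 basal and 3 of 4 smooth muscle genes were lower, 3 of 5 macrophage genes were higher, with a median of 0.12. Among the 7 luminal genes 5 were higher and 2 lower, with a median of 0.18, and 1 was lower at an unadjusted p under 0.05 in limma. The 8 tested fat cell genes had list means between -0.46 and 0.35 over all groups, with several of them at the limit. None of the 4 endothelial genes passed in limma, but 4 of 4 were lower, 2 at an unadjusted p under 0.05, with a median of -0.60, and their part in the basement membrane results was not tested. The endothelial list means ran from -0.30 to 0.75 in WT, -1.84 to 0.91 in IFNAR1-/-, -1.77 to 0.93 in Her2/Neu+ and -1.94 to 0.15 in Her2/Neu+/IFNAR1-/- glands. The 4 B cell, 5 T cell, 3 Schwann cell and 5 skeletal muscle genes tested had none past the threshold in limma. Skeletal muscle means were at most -0.72 in WT and reached 4.42 in IFNAR1-/- and 3.65 in Her2/Neu+/IFNAR1-/- glands, and the B cell mean reached 2.73 on Her2/Neu+ 114. Without IFNAR1-/- 41, 42 and 44, the glands of that group with high muscle genes, Fn1 and Col1a2 were the matrix genes that passed in the averaged comparison.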

How the data were processed

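RNA from 30 inguinal mammary glands (Cy5) was hybridised with a universal mouse reference (Cy3) on 2-colour Agilent arrays, per the labels. The authors deposited a table of log2 ratios for 20896 probes, of which 17376 have 1 gene symbol; base 2 was inferred from the values, the direction follows the dyes in the labels, and the authors' background correction and normalization are not given in the sources used here. Of all values 5.88% were blank. Probes filled on 50% or more of the arrays in each group were kept and averaged per gene, and a single linear model over the 4 groups was fitted with limma 3.58.1 in R 4.3.3 (lmFit and eBayes; Benjamini-Hochberg adjustment over 11463 genes, threshold 0.05). The script was tested on simulated data. Groups come from the sample titles. The genes and lists were chosen with earlier results of these data known. Named with a change were genes past the threshold and, per comparison, the 4 largest rises and 4 largest falls at an unadjusted p under 0.05; fixed genes were named with their levels throughout, and a few others were named after their values were seen. Alternatives changed 1 choice at a time. For arrays, their number limits the precision.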

Additional observations from a re-analysis of the deposited data

Results flagged for a closer look

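Of 73 sets of values of 1 gene in 1 group that were examined, 8 held an array far from the rest of its group, with a gap to the nearest array above the 95% critical value of Dixon's test. Chance alone gives about 1 in 20. IFNAR1-/- 41 was the lowest of its group for Fn1 (-3.25, next -1.75), Col5a1 (-2.16, next -0.28), Lamb1 (-0.92, next 0.93) and Lamc1 (-0.90, next 1.03). Her2/Neu+/IFNAR1-/- 110 was the lowest of its group for Dcn (1.80, next 2.88) and Col18a1 (-1.53, next 0.21). Her2/Neu+ 114 was the lowest of its group for Col1a1 (-3.68, next -1.24). Lum on Her2/Neu+/IFNAR1-/- 102 (5.93) stood apart because all other arrays of the group were at the limit of 6.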

How the results depend on the processing

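Alternatives without the last inferred slide and within each set of 15 arrays were chosen after seeing the data. Her2/Neu+ minus WT called 1 of the tested matrix genes, and 0 with quantile normalization, with only the compared groups, with the inferred slide as a random block (consensus correlation 0.10), without the last inferred slide and in the first set. It called 7 of 34 in the second set, where 6.51% of all genes passed, and from 0 to 2 when 1 array was left out. The oncogene average called 5, and 8 with quantile normalization, 3 with 1 probe per gene and 1 with the slide block. It called 4 without the last inferred slide, 2 without IFNAR1-/- 41, 42 and 44, 0 in the first set and 8 in the second. When 1 array was left out it called from 1 to 7. Over all genes that average called 295, 73 with the slide block, 0 in the first set and 756 in the second. Her2/Neu+/IFNAR1-/- minus IFNAR1-/- called 0, and 2 with array weights, 2 without the last slide, and from 0 to 1 when 1 array was left out. With array weights, and also without the last slide, 3.35% of all genes passed there. In the second set Her2/Neu+/IFNAR1-/- minus Her2/Neu+ called 5 of 34, the interaction 3 and the receptor average 3, against 0 over all arrays. Of all genes 7.89%, 4.22% and 2.54% passed in that set, so calls rose over the whole table. The receptor average called from 0 to 1 when 1 array was left out. Col14a1 in Her2/Neu+/IFNAR1-/- minus Her2/Neu+ turned to -0.12 in the first set. The correlation of Col1a1 with Col3a1 was 0.57 without its 2 farthest arrays. The cause was not tested. Median centring, probes present on all arrays and repeated values set to missing left the average at 5. No paired analysis was possible because each sample number occurs in 1 group. Values at the limit are bounds, and repeated values near 0 may hold no measurement.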
